A study of Homo sapiens with 6 samples.

Results

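The 8 genes described here encode proteins, and in 1 case an RNA, that are reported to work in transcription with P68, a DEAD-box RNA helicase whose gene is DDX5. They were chosen by name from what is known of P68, with earlier results of these data already known. All 8 were among the 18417 genes measured by a probe set with 1 gene symbol. The cells were U-87, a long-established line from a human glioma, labelled as brain. Total RNA of whole cultures was hybridised to 6 Affymetrix Human Gene 1.0 ST arrays. The 3 P68 knockdown arrays and the 3 P68 wild type arrays come from the same line, grown in DMEM with 10% serum. The treatment note names transfection with siP68, an siRNA against P68, or with NC (not spelled out further), and which arrays received NC is not said. Whether the 3 arrays of a group stand for separate cultures is not stated, so the spread between them may be technical.

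Besides unwinding RNA, P68 is known as a transcriptional coactivator, a protein that is brought to a promoter by a DNA-binding factor and helps to recruit other proteins there. Beta-catenin (CTNNB1), the estrogen receptor alpha (ESR1) and the osteoblast factor RUNX2 are factors it is reported to coactivate. The acetyltransferases p300 (EP300) and CBP (CREBBP) and the deacetylase HDAC1 are enzymes of histone acetylation reported to bind it. CTCF, the insulator protein that anchors chromatin loops with cohesin, is reported to hold P68 together with SRA1, the gene of the steroid receptor RNA activator, which acts as an RNA coactivator and also encodes a protein. All of these are contacts between proteins or with RNA, and an array measures only the RNA level of each partner.

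The targeted gene had its 3 lowest values on the knockdown arrays. DDX5 had a log2 signal of 9.47, 9.79 and 9.91 on knockdown arrays 1, 2 and 3, against 10.09, 10.25 and 10.30 on wild type arrays 1, 2 and 3. The groups did not overlap, and 71.2% of the wild type signal was left on average (95% confidence interval 58.4% to 86.9%), which did not pass the threshold of 0.05 over all genes (adjusted p = 0.902, limma). Of all genes, 4.15% likewise had all knockdown values below all wild type values. In RNA of whole cultures, fewer cells expressing a gene and less RNA per cell cannot be told apart. The arrays resembled each other closely, with r between 0.979 and 0.991 for every pair of arrays.

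Of the 8 partners, 7 gave a signal above the level of genes presumed silent in U-87. ESR1 was the exception. No detection call was used, so the 341 measured olfactory receptor genes, which are expressed in the nasal epithelium, served as the comparison. Their mean log2 signal over the 6 arrays had a median of 3.06, and 95% of them lay below 4.715. Probe sets differ in how strongly they bind, so each partner is placed against this distribution and not ranked against another partner. Of all genes, 48.9% lay above the same level. The highest olfactory receptor gene had 6.13. Neuronal and endothelial markers lay on both sides of the level, so a place above it does not by itself show expression.

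CTNNB1 had a mean log2 signal of 9.44, CTCF 8.32 and CREBBP 6.40, each above all of the olfactory receptor genes. HDAC1 had 5.95, RUNX2 5.65 and EP300 5.50, each above more than 99% of them. SRA1 had 5.07, above 97.4% of them. These 7 were above the 95th percentile on all 6 arrays, where it was taken on each array and lay between 4.68 and 4.86. SRA1 fell below the 99th percentile of 5.45, and 6 partners lay above it.

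ESR1 had a mean of 4.69, higher than 94.7% of the olfactory receptor genes and below the 95th percentile of each array on all 6. On knockdown array 2, its highest, ESR1 had 4.82 against a percentile of 4.86 on that array. It came closer on wild type array 2 (4.70 against 4.71) and wild type array 3 (4.67 against 4.68). Leaving out wild type replicate 1 put the mean of ESR1 above the 95th percentile. Its probe set was the brighter of a pair and is paired with 1 accession in the probe annotation. The other ESR1 probe set, paired with 20 accessions including the RefSeq transcripts, had a mean of 4.08, higher than 85.0% of the olfactory receptor genes. At the 95th percentile, an ESR1 signal apart from background was therefore not shown with either probe set. The brighter one lay so close to that level that the outcome depends on the percentile chosen, with all 8 partners above the 90th. Of 11 measured genes the estrogen receptor is known to induce, 5 lay above that level, where 48.9% of all genes did. Among them, chosen after their values were seen, PGR had a mean of 4.04 and GREB1 4.19, both below the 95th percentile of the olfactory receptor genes, and TFF1 5.21, above it.

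**Figure D1:**
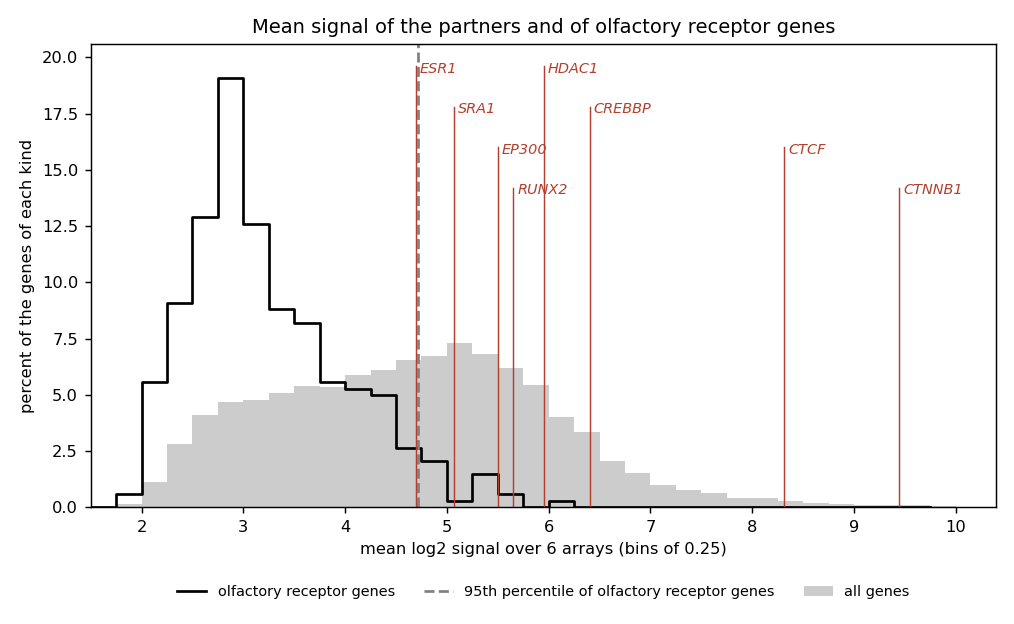
Distribution of the mean log2 signal over the 6 arrays (x axis, bins of 0.25) for all 18417 genes (grey bars) and for the 341 olfactory receptor genes (black line), as percent of the genes of each kind, with the 8 partners as red lines. ESR1 lies just left of the dashed 95th percentile of 4.715 and the other 7 partners lie right of it.

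The annotated start regions of the partners differ in base composition. In the 300 bases around each RefSeq gene start (250 before and 50 after, GRCh38.p14), CTCF held 46 CpG dinucleotides, EP300 40, CTNNB1 39, CREBBP 36 and HDAC1 28, against a median of 14 over 27305 such windows. ESR1 held 4, RUNX2 2 and SRA1 0. The windows of CTCF, with a signal far above the olfactory receptor genes, of RUNX2, above them with a CpG-poor window, and of ESR1, not above them, are printed 5′ to 3′ with each CpG in capitals. They lie at chr16:67562276-67562575 (+ strand, CTCF), chr6:45328080-45328379 (+ strand, RUNX2) and chr6:151656422-151656721 (+ strand, ESR1), and the sequences are from RefSeq.
CTCF: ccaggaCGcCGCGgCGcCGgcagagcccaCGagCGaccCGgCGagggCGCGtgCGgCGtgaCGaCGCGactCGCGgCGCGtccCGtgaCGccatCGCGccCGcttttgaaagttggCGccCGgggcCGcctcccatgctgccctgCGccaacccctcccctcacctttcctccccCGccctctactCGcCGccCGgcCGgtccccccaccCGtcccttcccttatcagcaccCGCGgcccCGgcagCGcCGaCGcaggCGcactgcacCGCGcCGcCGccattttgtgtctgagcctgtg
RUNX2: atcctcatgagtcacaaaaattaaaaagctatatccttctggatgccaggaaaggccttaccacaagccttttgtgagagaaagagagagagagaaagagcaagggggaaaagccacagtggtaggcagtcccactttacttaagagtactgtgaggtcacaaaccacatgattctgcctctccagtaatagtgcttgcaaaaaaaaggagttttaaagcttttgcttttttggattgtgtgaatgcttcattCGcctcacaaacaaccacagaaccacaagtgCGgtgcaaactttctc
ESR1: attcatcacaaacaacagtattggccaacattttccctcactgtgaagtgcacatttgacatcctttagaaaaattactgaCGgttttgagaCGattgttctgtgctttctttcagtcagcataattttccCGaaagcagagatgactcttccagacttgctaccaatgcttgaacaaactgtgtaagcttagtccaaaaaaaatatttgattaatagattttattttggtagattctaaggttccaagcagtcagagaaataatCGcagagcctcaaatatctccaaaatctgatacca

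In the printed windows the capitals run densely through CTCF and are scattered singly in RUNX2 and ESR1. ESR1 and RUNX2 are known to have several promoters, and each window covers only the gene start given in the table. The RUNX core letters ACCACA, read on both strands with overlaps counted, matched 4 times in the RUNX2 window, in none of the other 7, and at least once in 13.1% of all windows. The GC box letters GGGCGG, read the same way, matched in CTNNB1, CREBBP, HDAC1 and CTCF and in 44.6% of all windows. The letters AGGTCA are only a half-site of the estrogen response element. Read the same way, they matched once each in RUNX2 and SRA1, in none of the other 6 including ESR1, and in 13.9% of all windows. These matches describe letters, and no binding was measured.

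Between knockdown and wild type, none of the partners passed the threshold of 0.05 (limma, adjusted p between 0.902 and 0.995). The same test called 0 of 18417 genes (0%), and 937 genes (5.09%) had an unadjusted p under 0.05, among them 0 partners. That count of partners was 3 without wild type replicate 1, where 1143 of 18417 genes had such a p. Without both arrays numbered 1 it was 1, where 1374 of 18417 genes did. Of the partners, 5 had values below 0 and 3 above, with a median log2 difference of -0.04, against 46.5% of all genes below 0 and a median of 0.01. The absolute difference of the partners was 0.22 at most, with a median of 0.09, and that of all genes also had a median of 0.09. Of all genes, 92.1% differed by under 0.25. Without both arrays numbered 1, a choice made after the values were seen, the partners' median was -0.105.

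**Figure D2:**
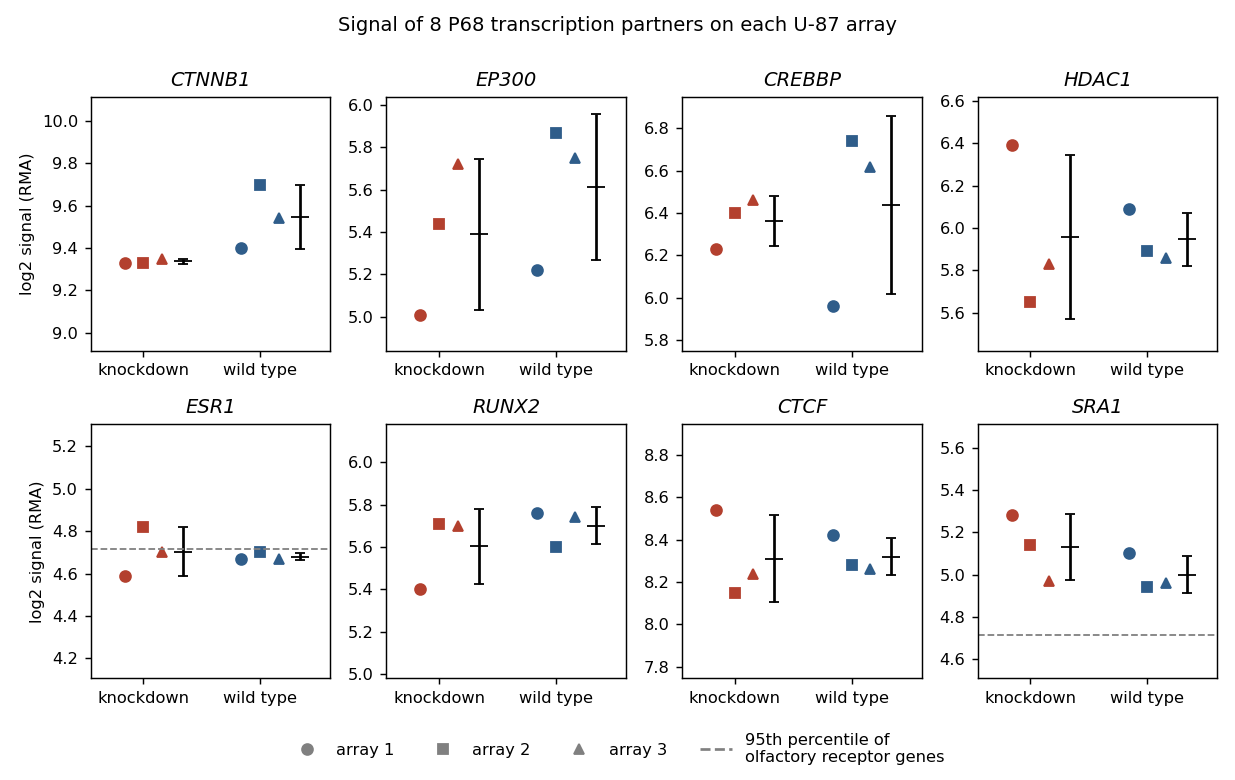
Log2 signal of each partner on the 3 knockdown arrays (red, left) and the 3 wild type arrays (blue, right), with the array number as the symbol and the mean ± SD as a black bar. Each panel spans 1.2 log2 units. The groups are apart for CTNNB1 and overlap for the other 7, and the dashed line is the 4.715 of the olfactory receptor genes' means where it falls in the panel.

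Among the factors that P68 coactivates, CTNNB1 was the one whose groups did not overlap. CTNNB1, the effector of canonical Wnt signalling and a component of adherens junctions, had a log2 signal of 9.33, 9.33 and 9.35 on knockdown arrays 1, 2 and 3, against 9.40, 9.70 and 9.54 on wild type arrays 1, 2 and 3. The knockdown arrays lay together at the low end, and wild type array 1 stood close to them. Knockdown arrays averaged 9.34 ± 0.01 and wild type arrays 9.55 ± 0.15 (SD, n = 3 per group). The log2 difference, knockdown minus wild type, was -0.21 ± 0.11 (SE, adjusted p = 0.902, limma). On the linear scale 86.5% of the wild type signal was present, and the 95% confidence interval ran from 73.3% to 102%. In an exact permutation test (two-sided) p was 0.1, the smallest value that 3 arrays against 3 can give. All knockdown values lay below all wild type values for 4.15% of genes, and 10.1% had groups that did not overlap in either direction, so 1 partner of 8 is near that background. Leaving out wild type replicate 1 gave -0.28, and leaving out wild type replicate 2 gave -0.13. Normalizing the arrays again by quantiles gave -0.14 and cyclic loess -0.12.

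RUNX2, the transcription factor of bone formation, had 5.40, 5.71 and 5.70 on knockdown arrays 1, 2 and 3, against 5.76, 5.60 and 5.74 on the wild type arrays. The groups overlapped, and knockdown array 1 was the lowest of the 6. The log2 difference was -0.10 ± 0.12 (SE, adjusted p = 0.928, limma), and it was 0.005 without knockdown replicate 1. ESR1, a nuclear receptor activated by estrogen, had 4.59, 4.82 and 4.70 in the knockdown against 4.67, 4.70 and 4.67 in the wild type, a log2 difference of 0.02 ± 0.10 (SE, adjusted p = 0.981, limma) at a level not told from background. The dimmer ESR1 probe set gave 0.05 ± 0.10 (SE, adjusted p = 0.953 with every probe set tested, limma).

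The acetyltransferases varied more between arrays than between groups. EP300, whose product acetylates histones at enhancers, had 5.01, 5.44 and 5.72 on knockdown arrays 1, 2 and 3, against 5.22, 5.87 and 5.75 on the wild type arrays. The array numbered 1 was the lowest of its group in both groups, and the groups overlapped. Knockdown arrays averaged 5.39 ± 0.36 and wild type arrays 5.61 ± 0.35 (SD, n = 3 per group), and the log2 difference was -0.22 ± 0.20 (SE, adjusted p = 0.912, limma). Leaving out knockdown replicate 1 gave -0.03, and leaving out wild type replicate 1 gave -0.42. CREBBP, the paralog of EP300, had 6.23, 6.40 and 6.46 in the knockdown against 5.96, 6.74 and 6.62 in the wild type. Wild type array 1 was the lowest of the 6 and wild type array 2 the highest, so the knockdown values lay inside the wild type range. The log2 difference of CREBBP was -0.08 ± 0.18 (SE, adjusted p = 0.963, limma), which became -0.32 once wild type replicate 1 was left out and 0.07 once wild type replicate 2 was.

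HDAC1, which removes acetyl groups from histones and with which P68 is reported to repress some promoters, had 6.39, 5.65 and 5.83 on knockdown arrays 1, 2 and 3, against 6.09, 5.89 and 5.86 on the wild type arrays. Knockdown arrays 1 and 2 were the highest and the lowest of the 6. Knockdown arrays averaged 5.96 ± 0.39 and wild type arrays 5.95 ± 0.13 (SD, n = 3 per group), and the log2 difference was 0.01 ± 0.17 (SE, adjusted p = 0.995, limma), which was -0.007 with each array centred on its median and -0.21 without knockdown replicate 1. The 95% confidence interval of HDAC1 still allowed a signal between 77.2% and 131% of the wild type.

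CTCF and SRA1, which are reported to act with P68 at insulators, also overlapped between groups. CTCF had 8.54, 8.15 and 8.24 on knockdown arrays 1, 2 and 3, against 8.42, 8.28 and 8.26 on the wild type arrays, so both groups were led by the array numbered 1. Its log2 difference was -0.01 ± 0.12 (SE, adjusted p = 0.994, limma), or 99.3% on the linear scale (95% confidence interval 82.3% to 120%), and 0.06 after cyclic loess between the arrays. SRA1 had 5.28, 5.14 and 4.97 in the knockdown against 5.10, 4.94 and 4.96 in the wild type. Every knockdown value of SRA1 lay above the lowest wild type value, and the groups overlapped. Its log2 difference was 0.13 ± 0.11 (SE, adjusted p = 0.912, limma), or 109% on the linear scale (95% confidence interval 92.1% to 130%). Leaving out knockdown replicate 1 gave 0.055, and leaving out knockdown replicate 3 gave 0.21.

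**Figure D3:**
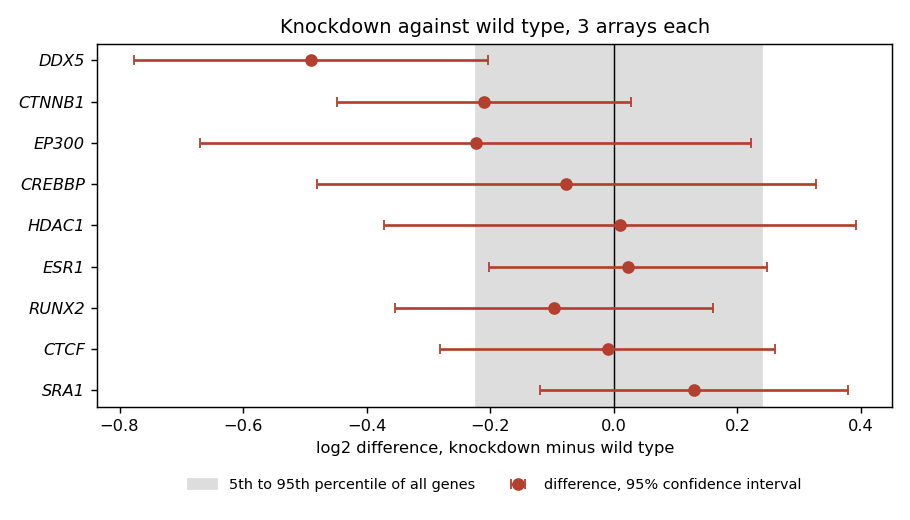
Log2 difference between knockdown and wild type (x axis) for DDX5 and the 8 partners, with 95% confidence intervals from limma, over the 5th to 95th percentile of all genes (grey, -0.22 to 0.24). The interval of DDX5 lies below 0, and the intervals of all 8 partners include 0.

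For 4 of the 8 partners, the arrays numbered 1 of both groups held the extreme pair of values at 1 end of all 6 arrays. EP300 and CREBBP had their lowest values of all 6 arrays on knockdown array 1 and wild type array 1, and HDAC1 and CTCF had their highest there. Over all genes, both arrays numbered 1 were the lowest for 9.72% and the highest for 9.87%, against 5.01% and 5.93% for the arrays numbered 2 and 5.45% and 4.60% for those numbered 3. What the numbers stand for is not stated in the labels, and its part in these values was not tested. The pooled SD between replicates was 0.35 for EP300, 0.31 for CREBBP and 0.29 for HDAC1 but 0.16 for CTCF, against a median of 0.14 over all genes. With both arrays numbered 1 left out, the log2 difference was -0.23 for EP300, -0.25 for CREBBP, -0.135 for HDAC1, -0.075 for CTCF and -0.28 for CTNNB1, and it was 0.105 for SRA1, 0.075 for ESR1 and 0.035 for RUNX2, each from 2 arrays a group and none past the threshold (adjusted p = 0.651 at the lowest, limma).

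**Figure D4:**
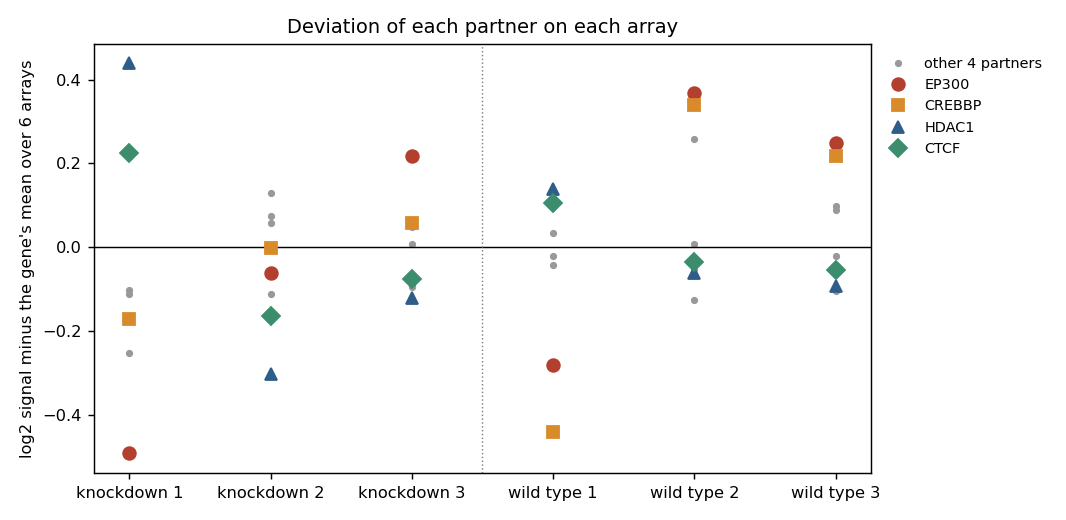
Log2 signal of each partner minus that gene's mean over the 6 arrays (y axis), by array (x axis, knockdown left of wild type). EP300 and CREBBP lie below 0 and HDAC1 and CTCF above 0 on both arrays numbered 1.

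Likeness between partners was measured over the same arrays. Across the 6 arrays the highest Pearson correlation among the 28 pairs of partners was between HDAC1 and CTCF (r = 0.994) and the lowest between EP300 and SRA1 (r = -0.947), with a median of -0.18. EP300 and CREBBP correlated with r = 0.849. These are descriptions over 6 arrays that share their groups and their scaling. Among 9208 genes at or above the median signal, those most like CTNNB1 over the 6 arrays were POLR2M (r = 0.987) and B3GNT7 (r = 0.986), which gave log2 differences of -0.36 and -0.25. DHX15 (r = 0.998) and ZNF24 (r = 0.997) were most like EP300, and PNPT1 (r = 0.990) and SPPL2A (r = 0.988) most like CREBBP. For HDAC1 they were PSAPL1 (r = 0.995) and CTCF itself, and for CTCF SESN1 (r = 0.999) and DHDDS (r = 0.997). For RUNX2 they were PCDHA12 (r = 0.995) and ANKZF1 (r = 0.989), for SRA1 SGSH (r = 0.988) and ZDHHC8 (r = 0.987), and for ESR1 GPHB5 (r = 0.992) and IL17A (r = 0.985). With 6 points such values are common: between 17 and 170 of the 9208 genes reached r over 0.95 for each partner.

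Each partner with a close paralog was compared with it inside the same array, which tests whether the pair changed unequally. With 3 arrays against 3 the smallest p possible is 0.1, so no pair could pass 0.05. The 6 pairs gave p = 0.2 to 0.9 (exact permutation test, two-sided), and 0.75 or more after Benjamini-Hochberg adjustment over the 6 pairs. CTNNB1 minus JUP, which encodes plakoglobin, the junctional relative of beta-catenin, was 3.38 ± 0.21 on knockdown arrays and 3.70 ± 0.26 on wild type arrays (log2, SD, n = 3 per group), a difference of -0.31. RUNX2 minus RUNX1 was -2.06 ± 0.10 on knockdown arrays and -1.78 ± 0.29 on wild type arrays, a difference of -0.28, or -0.11 without wild type replicate 1. EP300 minus CREBBP differed by -0.15 and CTCF minus CTCFL, its germline paralog, by -0.15. With single arrays left out, the difference ran between -0.46 and -0.19 for CTNNB1 minus JUP, between -0.26 and -0.02 for EP300 minus CREBBP and between -0.295 and -0.075 for CTCF minus CTCFL. HDAC1 minus HDAC2 and ESR1 minus ESR2 differed by 0.05 and 0.03. Pairs with ESR1, ESR2 or CTCFL rest on signals not told from background.

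The genes that work beside the partners were described by list. Of 16 lists, 10 concern the partners and 6 are cell type markers, and no gene of any list passed the threshold over all genes (0% of genes did, limma). Of 10 measured genes among 14 other reported transcription partners of P68, 6 lay below 0 and 4 above (median log2 difference -0.06). POLR2A, the largest subunit of RNA polymerase II, had 5.20, 5.32 and 5.31 in the knockdown against 5.60, 5.45 and 5.45 in the wild type, a difference of -0.22 ± 0.10 (SE, adjusted p = 0.902, limma). MYOD1, the muscle factor P68 is reported to coactivate, had a mean of 4.31, below the 95th percentile of the olfactory receptor genes. The median of this list ran between -0.10 and 0.02 with single arrays left out.

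Around beta-catenin, the genes lay evenly on both sides of 0. Of 18 measured nuclear partners, junction proteins and members of the destruction complex that degrades it, 9 lay above and 9 below (median -0.01, between -0.06 and 0.02 with single arrays left out). BTRC, the ubiquitin ligase subunit that binds phosphorylated beta-catenin, averaged 5.05 on knockdown arrays and 5.34 on wild type arrays (difference -0.29 ± 0.16, SE, adjusted p = 0.902, limma). CTNNA1, alpha-catenin, which links beta-catenin to actin, had groups that did not overlap, at 7.45, 7.49 and 7.48 in the knockdown against 7.60, 7.69 and 7.57 in the wild type. TCF7L1, a DNA-binding partner, had groups apart in the other direction, at 5.62, 5.73 and 5.58 in the knockdown against 5.53, 5.51 and 5.54 in the wild type. Neither was picked before its values were seen, and each is 1 of 18, where 4.15% of all genes had the knockdown lower throughout and 5.98% higher. Of 20 measured beta-catenin target genes, 11 lay below 0 and 9 above (median -0.02, and 0.004 without knockdown replicate 3), and the groups overlapped for all 20. LEF1, a DNA-binding partner and target, differed most, at 4.08, 4.27 and 4.20 in the knockdown against 3.84, 3.89 and 4.08 in the wild type, on signals below the 95th percentile of the olfactory receptor genes. CCND1, AXIN2 and MYC, often used as readouts of the pathway and named here after their values were seen, gave -0.13, 0.16 and -0.09.

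The acetylation genes were likewise mixed. The list of acetyltransferases and CREB coactivators also held CREB1 itself and CARM1, a methyltransferase, and both lay below 0. Of its 11 measured genes, 6 lay below 0 and 5 above (median -0.07, and 0.03 without wild type replicate 3 or 0.01 without wild type replicate 2). CREB1, the DNA-binding factor for which CBP was named, had 7.12, 7.21 and 7.62 in the knockdown against 7.08, 7.83 and 7.73 in the wild type (difference -0.23 ± 0.20, SE). Of the 19 subunits of HDAC1 complexes, 13 lay below 0 and 6 above (median -0.08, with -0.04 after cyclic loess or without knockdown replicate 2). Of all genes, 46.5% lay below 0. All knockdown values lay below all wild type values for 2 of the 19, where 4.15% of all genes did. The signals of 16 lay above the 95th percentile of the olfactory receptor genes. SIN3A, the scaffold of the SIN3 corepressor, gave -0.22 ± 0.12 (SE) at a mean signal of 4.32, below that percentile. HDAC2, the partner deacetylase, averaged 9.03 on knockdown arrays and 9.06 on wild type arrays.

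Most genes of the cohesin list had values below 0, none of them past the threshold. Of 14 cohesin genes and CTCF cofactors, 11 lay below 0 and 3 above, with a median log2 difference of -0.06, where 46.5% of all genes lay below 0. The 5 cohesin subunits on the list were SMC1A, SMC3, RAD21, STAG1 and STAG2. They and the loader NIPBL had values between -0.26 and -0.18 (chosen after their values were seen). The other loader subunit, MAU2, had -0.01. SMC1A, an arm of the cohesin ring, had 7.69, 7.38 and 7.52 in the knockdown against 7.76, 7.84 and 7.78 in the wild type, a difference of -0.26 ± 0.11 (SE, adjusted p = 0.902, limma). STAG1 and STAG2, which bind CTCF within cohesin, also had groups that did not overlap, and 3 of the 14 did so on the lower side, where 4.15% of all genes did. The median was -0.22 without wild type replicate 1, -0.155 without knockdown replicate 1 and -0.16 without knockdown replicate 3. It stayed near its main value without knockdown replicate 2 (-0.06), wild type replicate 2 (-0.07) or wild type replicate 3 (-0.04). Array median centring gave -0.08 and cyclic loess -0.07.

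Target genes of RUNX2 and of the estrogen receptor had medians above 0. Of 10 measured RUNX2 target genes, 9 lay above 0 (median 0.17), where 9662 of 18417 genes did. Among the 10, 4 had all knockdown values above all wild type values, where 5.98% of all genes did. SPP1, the bone matrix protein osteopontin, had 3.45, 3.48 and 3.25 in the knockdown against 3.13, 2.96 and 3.23 in the wild type (difference 0.29 ± 0.11, SE, adjusted p = 0.902, limma). The other 3 (chosen after their values were seen) were PTH1R, the parathyroid hormone receptor, at 0.28, the collagen COL10A1 at 0.26 and the collagen COL1A1 at 0.18. The signals of 5 of the 10, SPP1 and COL10A1 among them, lay below the 95th percentile of the olfactory receptor genes. Leaving out knockdown replicate 1 put the median of the list at 0.26, and leaving out knockdown replicate 2 put it at 0.105. RUNX2 itself and CBFB, the cofactor that strengthens its binding to DNA, lay below 0, by -0.10 and -0.07. Of 9 genes of the RUNX family and its cofactors, 5 lay below 0 (median -0.07, and 0.01 after cyclic loess), with the corepressor TLE3 at -0.23 ± 0.22 (SE).

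Of 11 measured estrogen receptor target genes, 6 lay above 0, 4 below and 1 at 0 (median 0.07, and -0.003 without knockdown replicate 3). All knockdown values lay above all wild type values for 2 of them and below for 1, where 5.98% and 4.15% of all genes did. KRT19, a keratin of simple epithelia, had 5.81, 5.90 and 5.59 in the knockdown against 5.34, 5.42 and 5.54 in the wild type (difference 0.33 ± 0.11, SE, adjusted p = 0.902, limma). MYBL1, a MYB family transcription factor named here after its values were seen, lay almost as far on the other side of 0, at 4.32, 4.12 and 4.38 in the knockdown against 4.61, 4.60 and 4.58 in the wild type (difference -0.32 ± 0.10, SE, adjusted p = 0.902, limma), on signals below the 95th percentile of the olfactory receptor genes. GREB1 gave 0 and TFF1 -0.05. A further list held steroid and related receptors, factors that act with them, such as FOXA1 and GATA3, and proteins that bind SRA RNA. Of its 14 measured genes, 7 lay on each side of 0 (median 0.02, between -0.05 and 0.05 with single arrays left out). In 2 of them all knockdown values lay below all wild type values, where 4.15% of all genes did. SAFB2, a nuclear matrix protein that represses the estrogen receptor, had 4.90, 4.87 and 4.99 in the knockdown against 5.10, 5.35 and 5.14 in the wild type (difference -0.28 ± 0.11, SE, adjusted p = 0.902, limma).

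**Figure D5:**
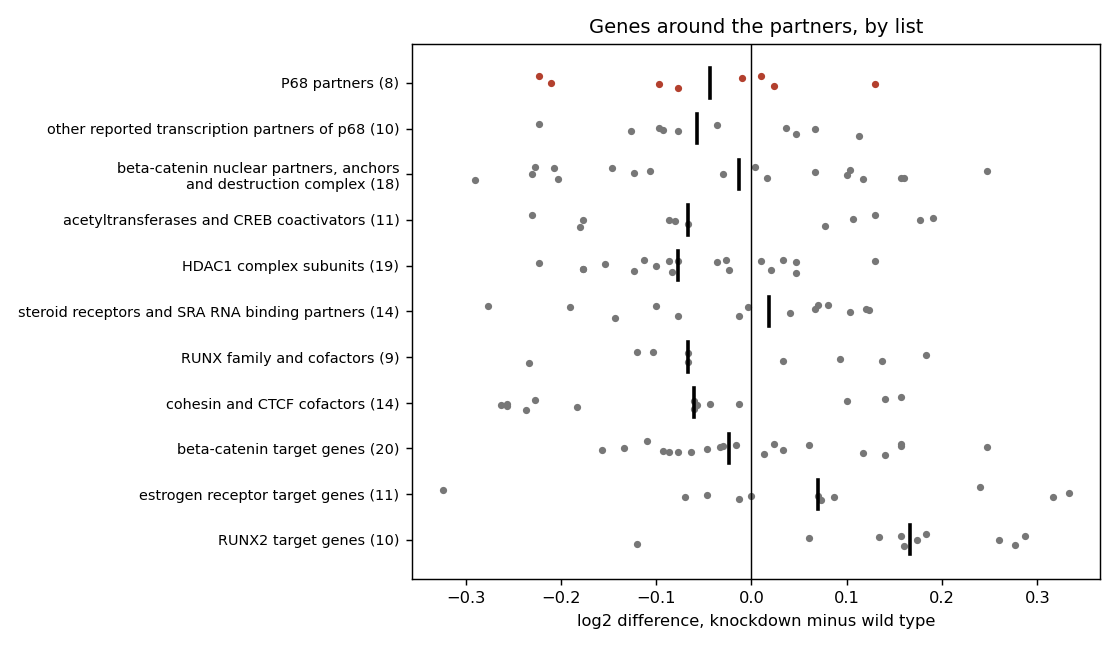
Log2 difference between knockdown and wild type (x axis) of the 8 partners (red) and of the measured genes of the 10 lists around them (grey, without the cell type markers; points, number of genes in parentheses), with the median as a black bar. The medians of the lists shown lie between -0.08 for HDAC1 complex subunits and 0.17 for RUNX2 target genes, and no point passed the threshold over all genes.

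The cell type markers gave the following check on the samples. Of 5 measured mesenchymal glioma markers, VIM (7.60) and NES (5.78) lay above the 95th percentile of the olfactory receptor genes, and CD44 (3.59), TNC (3.75) and CHI3L1 (4.39) lay below it. The signals of these last 3 were thus not told from background. The marker lists were chosen here and do not come from the labels. Microglial PTPRC (2.74), AIF1 (2.84) and CX3CR1 (3.45) lay below it as well, while ITGAM and CD68 lay above. All 3 measured oligodendrocyte markers and 4 of 5 astrocyte markers, GFAP (5.62) being the exception, lay below it, as did 2 of 4 neuronal and 3 of 4 endothelial markers. Neuronal RBFOX3 (5.755) and SNAP25 (5.13) and endothelial CLDN5 (5.81) lay above it. The largest absolute difference of each marker list was -0.22 for CHI3L1, 0.32 for the neuronal STMN2, 0.50 for the macrophage protein CD68, 0.10 for the myelin gene MBP, 0.37 for the astrocyte water channel AQP4 and 0.27 for the endothelial CLDN5, and none passed the threshold. Their part in the partners' values was not tested.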

How the data were processed

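The authors deposited log2 signals of 29096 probe sets on 6 arrays, rounded to 2 decimals, made with RMA per the submitters' processing notes. RMA scales the arrays to each other, which can hide a shift of most genes in 1 direction; the deposited medians still ran from 4.32 to 4.37. For the RMA software and version, the genome build and filters, the details are not given in the sources used. Probe sets with 1 gene symbol numbered 19460, with several 1754 and with none 7882, and 19429 of the 19460 matched a RefSeq gene by identifier. Each of the 18417 genes is represented by its probe set of highest mean signal. ESR1 was the only partner with more than 1 probe set.

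Knockdown and wild type were compared in R 4.3.3 over all genes by a two-sided moderated test (lmFit and eBayes of limma 3.58.1) with group as its sole term, with no filter on dim probe sets and Benjamini-Hochberg adjustment at 0.05. The fit was tested on simulated data with known changes larger than the difference of any partner, so that test does not cover changes of the partners' size. The number of arrays limits the precision (median SE 0.12). The partners and the gene lists were chosen with earlier results of these data known, so directions already seen are not independent support. Of 180 list genes, 162 were measured by a probe set with 1 symbol, and the others were not analysed here. The rule for named genes took the partners, DDX5, the member of each list with the largest absolute difference (none passed), the paralogs and the 2 genes most correlated with each partner. Every other gene of a list that is named was chosen after its values were seen. Promoters were matched for all 8 partners by symbol.

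The alternatives were other scalings (array median, repeated quantile, cyclic loess), a threshold of 0.01, array weights, an intensity trend, a replicate block, each array left out, the dimmest 40% of genes left out, probe sets averaged per gene, and all probe sets tested. For the olfactory receptor comparison they were other percentiles (90th and 99th) and all 6 arrays singly.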

Additional observations from a re-analysis of the deposited data

How the results depend on the processing

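No alternative called any gene or any partner. The count of genes past the threshold was 0 in all settings, with 937 genes at an unadjusted p under 0.05, or 543 to 1374 over the alternatives, and the lowest adjusted p of a partner was 0.651 (limma). Of 137 alternative values of the 8 partners, 18 changed sign, all of differences that had passed no threshold. HDAC1 gave -0.0067 with array median centring, -0.0056 after repeated quantile normalization, -0.0006 after cyclic loess, -0.0001 with array weights and -0.135 with both arrays numbered 1 left out. CTCF gave 0.0603 after repeated quantile normalization and 0.0578 after cyclic loess, and RUNX2 gave 0.035 with both arrays numbered 1 left out. In that last setting, added after the values were seen, the median of the partners was -0.105. The cause was not tested.

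With each array left out in turn, the log2 difference ran from -0.317 to 0.0733 for CREBBP, from -0.207 to 0.163 for HDAC1, from -0.035 to 0.08 for ESR1, from -0.15 to 0.005 for RUNX2 and from -0.125 to 0.07 for CTCF. CTNNB1, EP300 and SRA1 kept their sign throughout. The paralog difference ran from -0.218 to 0.207 for HDAC1 minus HDAC2 and from -0.0467 to 0.0883 for ESR1 minus ESR2.

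The partners above the olfactory receptor genes numbered 8 at the 90th percentile, 6 at the 99th and 8 without wild type replicate 1. It is not known that the replicate numbers pair the arrays: the deviations of same-numbered arrays correlated with r = 0.268, -0.027 and 0.125, and 1 of 3 knockdown arrays correlated best with its own number. With a replicate block the differences are the same by construction and 0 genes passed, with the SE of EP300 at 0.116 (adjusted p = 0.791, limma). Arrays carry no read depth, and signal near background limits ESR1 most.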
